A study of Mus musculus with 23 samples.

Results

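The genes of antigen presentation were followed in astrocytes from the cortex of mice that lacked ALDH7A1 in astrocytes, with and without the NRF2 activator sulforaphane (SFN) in the diet. The members were all symbols of the count table that start with H2-, the prefix of the mouse major histocompatibility complex (MHC), together with B2m, Cd74, Ciita, Nlrc5, Tap1, Tap2, Tapbp, Psmb8, Psmb9, Psmb10 and Erap1. They numbered 54 of 24411 gene symbols, of which 41 belong to the class I pathway, 12 to the class II pathway and 1, H2-Ke6, lies among the MHC genes but encodes no MHC chain. The rule is by symbol and uses no measured value, although earlier results of these data were known when the members were proposed. MHC class I molecules sit on nearly all nucleated cells and show them peptides cut from the cell's own proteins. MHC class II molecules show peptides from ingested material and are carried mainly by professional antigen presenting cells. In the healthy brain class II is best known from border-associated macrophages, and from microglia and astrocytes that have met interferon.

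RNA was sequenced from 23 preparations of cortical astrocytes, each from 1 male mouse at postnatal day 70 by its label, in 4 groups. All mice were Aldh7a1 flox/flox, and all received 4-hydroxytamoxifen on postnatal days 3 and 4. ConAstro mice (n = 4) carried no Cre and were fed the control diet, and SFN-fed ConAstro mice (n = 5) were the same genotype on the SFN diet from postnatal day 21. cKOAstro mice (n = 7, control diet) and SFN-fed cKOAstro mice (n = 7, SFN diet) also carried Slc1a3 CreER/+, in which CreER replaces 1 copy of a glutamate transporter gene, so deletion is set by the cells that use the Slc1a3 locus and the Cre carriers have that copy altered too. Cells were caught with magnetic beads against the astrocyte antigen ACSA-2 after papain digestion of the cortex, so cells of other types that come along with them are counted too.

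Total counts per library lay between 46890715 and 391701247. The astrocyte markers Slc1a2 (median 10450 CPM, counts scaled to library size) and Aldoc (3458 CPM) were abundant in all 23 libraries, and the summed level of the 10 astrocyte markers lay between 14092 and 25956 CPM. The 8 oligodendrocyte markers summed to between 23188 and 59678 CPM, and the 12 microglia markers to between 423 and 3607 CPM. The 9 lymphocyte markers found in the table summed to at most 7.17 CPM. The 8 dendritic cell markers summed to between 10.4 and 88.65 CPM, although 1 of them, Xcr1, had a median of 0.0209 CPM. SFN-fed cKOAstro replicate 5 was the lowest library and replicate 7 the highest for both the dendritic cell and the microglia list. The dendritic cell sum therefore cannot be read as dendritic cells apart from microglia. A library labelled SFN-fed ConAstro replicate 1 (titled Con_SFN1) held 55.7 CPM of Aldh7a1 against 177 to 226 in the rest of its group, and a library labelled SFN-fed cKOAstro replicate 2 (titled cKO_SFN2) held 222 CPM against 43.0 to 56.5, so both went against their genotype label. Both were kept under their labels, and each result is also given without them. The library of cKOAstro replicate 2, labelled male, held 1541 CPM of Xist and 0.0077 CPM of Ddx3y, whereas the other 22 libraries held at most 0.706 CPM of Xist. Library names fell into 2 series, 6 that start with Astro and 17 that are plain numbers. The Astro-named libraries were cKOAstro replicates 2 and 4, SFN-fed ConAstro replicate 1 and SFN-fed cKOAstro replicates 4, 5 and 6, with none in ConAstro. The plain numbers share prefixes, which follow the groups in part: all 4 ConAstro libraries start with 143, the numbered cKOAstro libraries with 141 (3) or 146 (2), the numbered SFN-fed ConAstro libraries with 145 (2) or 147 (2), and the numbered SFN-fed cKOAstro libraries with 143 (3) or 147 (1). ConAstro therefore shares no prefix with cKOAstro or SFN-fed ConAstro, nor do numbered cKOAstro libraries with numbered SFN-fed cKOAstro libraries, and in those comparisons the prefix and the group cannot be told apart. What the names stand for is not given in the labels.

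By GENCODE M21, the annotation of GRCm38 (the build also called mm10), 50 of the 54 symbols were found and 44 of these lie on chromosome 17. H2-K1 spans chr17:33996017-34000347 on the minus strand, H2-Aa chr17:34282744-34287823 on the minus strand and H2-Eb1 chr17:34305867-34316674 on the plus strand. B2m lies elsewhere, at chr2:122147686-122153083, as do the transactivators Ciita (chr16:10480059-10528418) and Nlrc5 (chr8:94434356-94527272), both on the plus strand. All 6 are protein-coding. The bases upstream of 4 members that later results turn on are shown because class I and class II promoters are known for short shared elements. Each run gives the 150 bases before the RefSeq start site on GRCm38.p6, on the gene's own strand, and capitals mark CCAAT on either strand (ATTGG is its reverse complement), GAAANNGAAA on either strand, and sites of the NF-kappaB type.
B2m, chr2:122147537-122147686, plus strand: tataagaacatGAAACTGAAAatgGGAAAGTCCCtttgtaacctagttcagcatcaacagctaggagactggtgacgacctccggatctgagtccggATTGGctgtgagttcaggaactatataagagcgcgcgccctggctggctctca
H2-K1, chr17:34000348-34000497, minus strand: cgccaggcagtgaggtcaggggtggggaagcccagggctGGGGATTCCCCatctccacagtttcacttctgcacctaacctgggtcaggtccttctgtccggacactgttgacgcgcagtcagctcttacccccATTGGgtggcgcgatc
H2-Aa, chr17:34287824-34287973, minus strand: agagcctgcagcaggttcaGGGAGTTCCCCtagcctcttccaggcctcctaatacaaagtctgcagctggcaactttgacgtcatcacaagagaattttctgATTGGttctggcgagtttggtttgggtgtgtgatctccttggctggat
H2-Eb1, chr17:34305717-34305866, plus strand: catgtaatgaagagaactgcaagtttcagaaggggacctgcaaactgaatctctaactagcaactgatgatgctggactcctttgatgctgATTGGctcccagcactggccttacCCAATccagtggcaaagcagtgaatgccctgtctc

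All 4 windows hold CCAAT, the B2m window alone of the 4 holds an exact match to the interferon-type spacing GAAANNGAAA, and the H2-Eb1 window alone holds no NF-kappaB type site. Only exact matches were counted, so a variant of that spacing, as in other interferon elements, would be missed. Over the 250 bases before the start site, on both strands, CCAAT was present in 23 of 29 class I promoters and in 7 of 8 class II promoters that RefSeq gives, against 34.5% of 27025 promoters. The NF-kappaB type site was present in 9 of the 29 and 1 of the 8, against 7.01% of all promoters, and GAAANNGAAA in 3 of the 29 and none of the 8, against 3.04%. These are letter matches and not measured sites, and many of the class I promoters are copies of one another.

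Which members were counted at all was read first. Of the 41 class I members, 31 had at least 1 count in some library, and 10 had none in any library (H2-M1, H2-M10.1, H2-M10.3, H2-M10.4, H2-M10.6, H2-Q6, H2-Q7, H2-Q8, H2-Q9 and H2-T9). All 12 class II members were counted, although H2-Ea-ps, a pseudogene, and H2-Eb2 had only 22 and 64 counts over all 23 libraries. After genes with low counts were removed across the 4 groups, 33 members were left to test (22 class I, 10 class II and H2-Ke6).

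B2m, which encodes the light chain shared by class I molecules, had the highest median of the members at 144 CPM per kb of exon, with a range of 71.8 to 328 over the 23 libraries. H2-K1, a classical class I heavy chain, followed at 46.8 CPM per kb (35.1 to 78.0), and H2-D1, the other classical heavy chain, stood at 9.71. Of the genes that carry peptides into the endoplasmic reticulum and load them, the chaperone gene Tapbp (tapasin) had 24.7 CPM per kb, the transporter gene Tap2 had 13.01 and its partner Tap1 had 2.26, and the peptide-trimming enzyme gene Erap1 had 4.05. The immunoproteasome subunit Psmb10 had 12.1 CPM per kb, well above Psmb8 at 2.15 and Psmb9 at 0.867. Among the non-classical chains H2-T23 was highest with 7.07. The class I transactivator Nlrc5 was low, at 0.356 CPM per kb.

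Class II messages were present too, and many of them varied widely between libraries. Cd74, which encodes the invariant chain that escorts class II molecules, had a median of 35.5 CPM per kb, the third highest of the members, and its highest library stood 7.39-fold above its lowest. The chain genes H2-Eb1, H2-Ab1 and H2-Aa had 12.9, 11.3 and 6.50 CPM per kb and ranges of 7.58-, 7.47- and 7.79-fold, against 2.22-fold for H2-K1 and 1.505-fold for Tapbp. Other class I members came nearer, as B2m (4.56-fold), Psmb9 (5.84-fold) and the low H2-Q5 (7.05-fold). The other class II members counted in every library ran from 3.45-fold for Ciita to 26.7-fold for the low H2-Oa. The peptide-editing genes were lower, and the lowest of them were H2-Oa at 0.329, H2-Ob at 0.215 and H2-DMb2 at 0.172 CPM per kb. Ciita, the class II transactivator, had 0.180 CPM per kb, from 0.104 to 0.358. In these bulk preparations fewer cells of a type and less RNA per cell cannot be told apart.

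**Figure D1:**
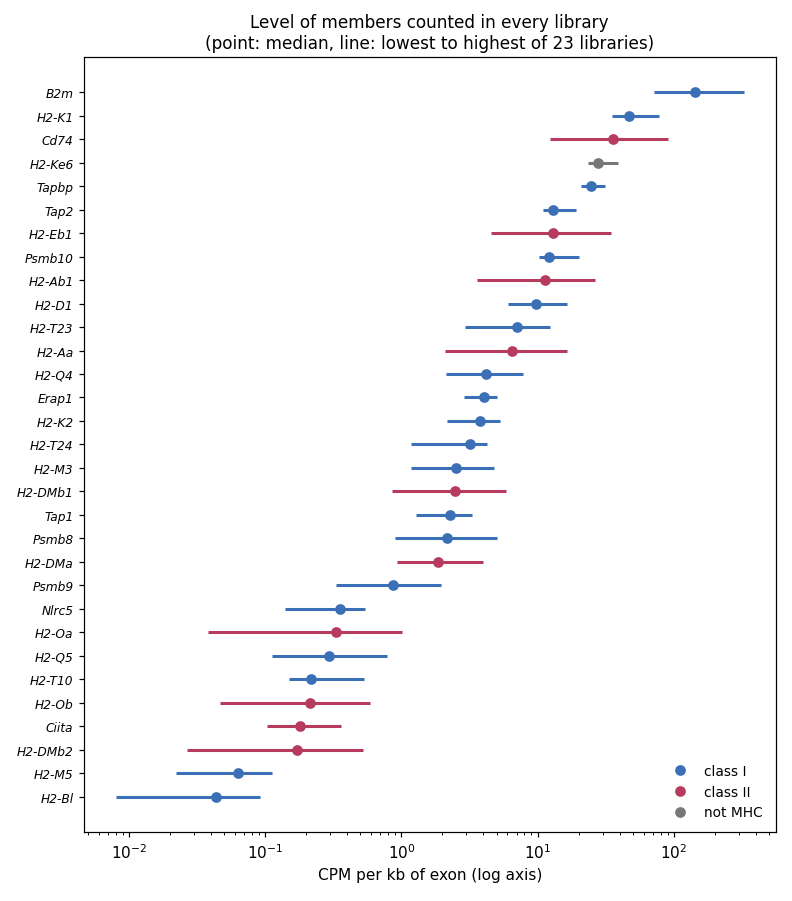
Median level (point) and lowest to highest level (line) over the 23 libraries, in CPM per kb of exon on a log axis, of the members counted in every library, coloured by class. B2m leads at 144 CPM per kb, and the lines of Cd74, H2-Eb1, H2-Ab1 and H2-Aa are longer than those of B2m, H2-K1 and Tapbp. The classes overlap in this, since the line of Ciita (3.45-fold) is shorter than that of B2m (4.56-fold).

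The comparison of cKOAstro with ConAstro asks what loss of ALDH7A1 does on the control diet, and no member passed the test. B2m measured 90.6, 125, 122 and 199 CPM in ConAstro replicates 1 to 4 and between 61.8 and 149 CPM (median 102) in the 7 cKOAstro libraries. H2-K1 measured 117, 123, 171 and 171 CPM in ConAstro and 103 to 156 CPM (median 136) in cKOAstro. For both genes the groups overlapped. Cd74 spread widely within ConAstro, where it measured 20.6, 39.0, 77.5 and 75.9 CPM, and the cKOAstro libraries (27.3 to 63.8 CPM, median 55.2) lay inside that span. H2-Aa behaved alike, with 8.002, 15.8, 32.4 and 30.1 CPM in ConAstro and 9.47 to 24.7 CPM (median 23.5) in cKOAstro. Ciita was at 1.65, 1.33, 1.85 and 2.89 CPM in ConAstro and at 1.47 to 2.56 CPM (median 1.61) in cKOAstro.

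Of the 33 members tested, 0 passed an adjusted p-value of 0.05 in edgeR, 0 had an unadjusted p under 0.05, and DESeq2 called 0, where 0.023% and 3.74% of the 17406 genes tested were past those 2 thresholds. The log2 fold changes were -0.35 ± 0.23 for B2m, -0.14 ± 0.13 for H2-K1, -0.16 ± 0.19 for H2-D1, 0.05 ± 0.16 for Tap1, -0.29 ± 0.33 for Psmb8 and -0.14 ± 0.34 for Nlrc5 (± SE throughout). Class II values were as small, with -0.17 ± 0.35 for Cd74, -0.16 ± 0.37 for H2-Aa, -0.22 ± 0.39 for H2-Ab1, -0.20 ± 0.36 for H2-Eb1 and -0.10 ± 0.22 for Ciita. The median of the 22 class I members was -0.15 and that of the 10 class II members -0.17, beside -0.0072 over all genes tested. The lowest p among the members belonged to H2-Q5, a class I chain (-0.72 ± 0.34, edgeR adjusted p = 0.981), followed by H2-M5 (0.46 ± 0.30) and H2-Q4 (-0.39 ± 0.25). H2-Q5 rested on 1 library, since ConAstro replicate 4 held 1.25 CPM against 0.380 to 0.512 in the other 3, and its value without that library was -0.15. It also shares 14.0% of its 100-base words with other genes, so its counts are uncertain. Among numbered libraries alone the class II median was 0.07 in place of -0.17, with 9 of 10 members above 0.

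**Figure D2:**
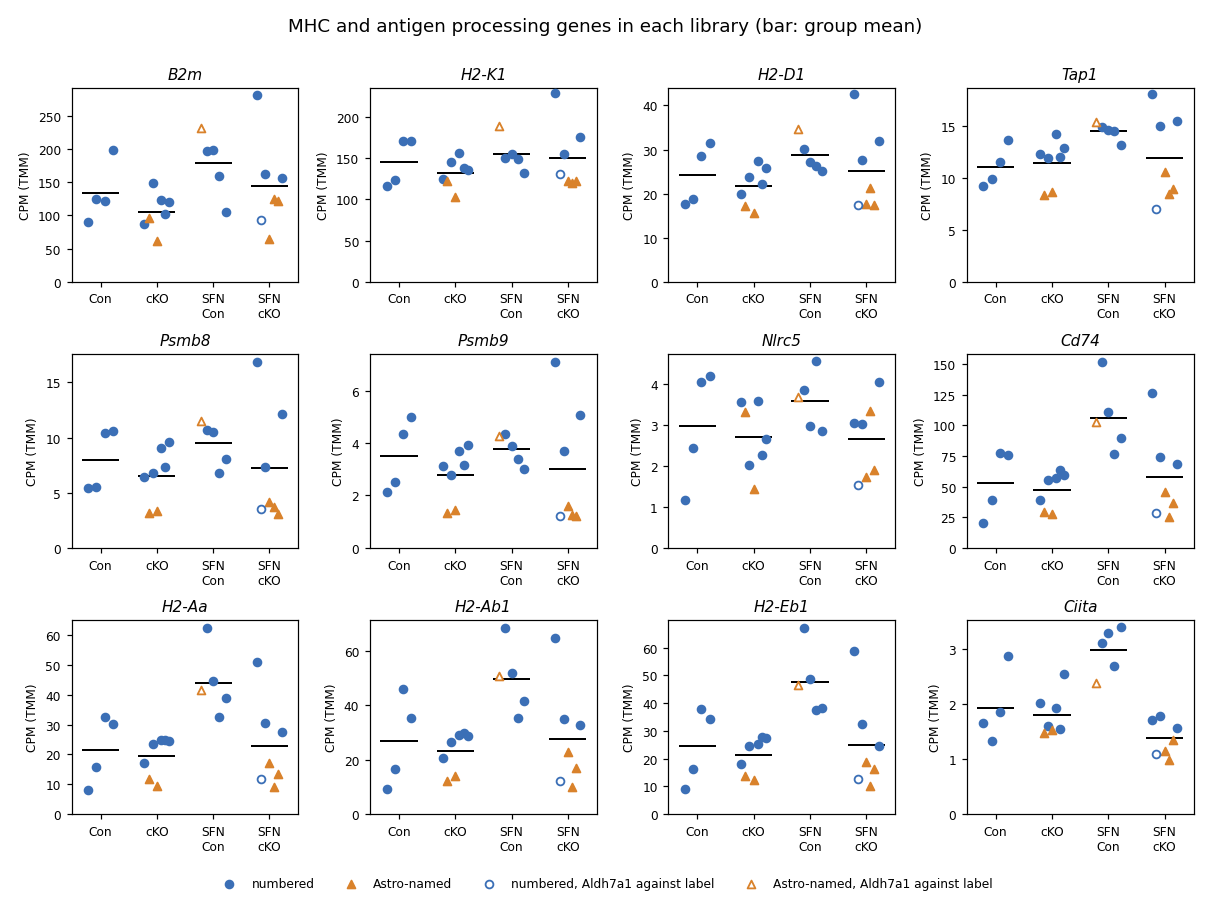
CPM of 12 class I and class II members in each of the 23 libraries, by group, with circles for numbered and triangles for Astro-named libraries, open symbols for the 2 libraries whose Aldh7a1 level goes against the label, and a bar at the group mean. Cd74 and H2-Aa span 20.6 to 152 and 8.002 to 62.3 CPM, and for Ciita the SFN-fed ConAstro libraries (2.39 to 3.41 CPM) all lie above the SFN-fed cKOAstro libraries (0.991 to 1.79 CPM). The share of all genes so separated was not computed.

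The comparison of SFN-fed ConAstro with ConAstro asks what the diet does where ALDH7A1 is intact, in groups that share no library name prefix. Class II members stood higher on the SFN diet by 0.85 at their median on the log2 scale, 0 of them past the adjusted threshold. Cd74 measured 103, 152, 111, 77.0 and 89.4 CPM in SFN-fed ConAstro replicates 1 to 5, where the highest ConAstro library had 77.5. The groups thus overlapped through a single pair of libraries. H2-Aa measured 41.4, 62.3, 44.6, 32.4 and 39.1 CPM, and H2-Eb1 measured 46.4, 67.1, 48.5, 37.5 and 38.2 CPM against 8.85, 16.3, 38.0 and 34.3 in ConAstro. H2-DMb2, a chain of the peptide exchange factor H2-DM, measured 0.875, 0.910, 0.732, 0.438 and 0.441 CPM against 0.215, 0.190, 0.341 and 0.447. The library against its label, replicate 1, was not at the edge of the group for Cd74, H2-Aa or H2-Eb1. Class I members moved less, as for H2-K1, which measured 189, 150.1, 155, 148 and 132 CPM on the SFN diet. Tap1 overlapped in a single pair of libraries, with 15.4, 14.96, 14.6, 14.5 and 13.2 CPM against 9.25, 9.89, 11.6 and 13.7. The share of all genes that overlapped as little was not computed.

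Of 30 members tested, 0 passed the adjusted threshold in edgeR and 0 in DESeq2, as did 0% of the 16509 genes in edgeR. At an unadjusted p under 0.05 stood 7 members, all higher on the SFN diet, of which 5 were among the 10 class II members and 2 among the 19 class I members. Over all genes 6.54% were past that threshold. The class II values were 1.17 ± 0.36 for H2-DMb2, 0.62 ± 0.23 for Ciita, 1.01 ± 0.37 for H2-Aa, 0.99 ± 0.37 for Cd74 and 0.95 ± 0.39 for H2-Eb1, and all 10 class II members had a positive sign. H2-Ab1 had 0.88 ± 0.42 (edgeR adjusted p = 0.771). Of class I, Tap1 (0.38 ± 0.12) and Erap1 (0.19 ± 0.07) had an unadjusted p under 0.05, and the adjusted p of these 7 members was 0.762. B2m had 0.41 ± 0.26, H2-D1 0.24 ± 0.18, Psmb8 0.24 ± 0.26, Nlrc5 0.26 ± 0.33 and H2-K1 0.08 ± 0.14. The class I median was 0.19 and that of all genes -0.0055. H2-DMb2 and its neighbour H2-DMb1 share 10.3% and 11.3% of their 100-base words with each other, and reads there cannot be assigned with certainty.

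Leaving out the library against its label left the class II median at 0.78 and the class I median at 0.16, with 0 of 30 members called and 6 at an unadjusted p under 0.05. Over the 16405 genes of that fit 0% were called and 8.41% had such a p. Other cell type markers moved in the same comparison. Of 7 fibroblast markers 6, and of 10 endothelial markers 4, were higher at an unadjusted p under 0.05 (medians 0.40 and 0.59), while 0 of 12 microglia markers (median 0.17) and 0 of 8 border macrophage markers (median 0.38) were. The summed border macrophage level was 307 to 680 CPM in ConAstro and 416 to 659 CPM in SFN-fed ConAstro, and its part in the class II values was not tested.

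The comparison of SFN-fed cKOAstro with SFN-fed ConAstro asks what loss of ALDH7A1 does on the SFN diet, and here Ciita separated the groups. Ciita measured 2.39, 3.12, 3.30, 2.71 and 3.41 CPM in SFN-fed ConAstro and 1.71, 1.097, 1.79, 1.15, 0.991, 1.35 and 1.57 CPM in SFN-fed cKOAstro. All 7 SFN-fed cKOAstro libraries lay below all 5 SFN-fed ConAstro libraries. The share of all genes separated in this way was not computed, in a fit where 20.3% of genes had an unadjusted p under 0.05. The 2 libraries whose Aldh7a1 goes against the label lay with the group of their label for Ciita, at 2.39 and 1.097 CPM. Sorted by measured Aldh7a1 level in place of the label, the SFN-fed libraries therefore overlapped for Ciita. The raw counts behind Ciita ran from 111 to 722 in these 12 libraries. Its fold change was -1.12 ± 0.18, the lowest p of the members (2.74e-05, edgeR, unadjusted), with an adjusted p of 0.195 that does not pass. The call depended on the tool and on the libraries in the fit. With DESeq2 the adjusted p was 1.97e-06, and with all 4 groups in 1 edgeR fit it was 0.0472. The share of all genes called in either of those fits is not given here. Leaving out 1 library at a time gave edgeR adjusted p-values of 0.0203 without SFN-fed cKOAstro replicate 3 and 0.0964 to 0.342 otherwise. The fit without SFN-fed cKOAstro replicate 3 called 701 genes in all, and each of the others called 0, so Ciita was not singled out there. The fold change stayed between -1.19 and -1.05 in those 12 fits. Without both libraries against their label it was -1.13 ± 0.19 (edgeR adjusted p = 0.31), and among numbered libraries alone it was -1.04.

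Genes that Ciita is known to switch on had lower medians in SFN-fed cKOAstro and spread widely. Cd74 had 25.5 to 127 CPM (median 45.9) in the 7 SFN-fed cKOAstro libraries, against 77.0 to 152 in SFN-fed ConAstro. SFN-fed cKOAstro replicate 1, with 127 CPM, lay inside the SFN-fed ConAstro range, and the other 6 lay below all of it. H2-Aa had 9.10 to 51.0 CPM (median 16.98) and H2-Eb1 9.96 to 58.7 CPM (median 18.7), again with replicate 1 as the highest library. Both genes kept the other 6 libraries under the lowest SFN-fed ConAstro value. The share of all genes placed in this way was not computed, so the pattern cannot be read as particular to these genes. Their fold changes were -0.87 ± 0.35 for Cd74, -0.94 ± 0.37 for H2-Aa, -0.94 ± 0.37 for H2-Eb1 and -0.84 ± 0.39 for H2-Ab1, and -1.20 ± 0.52 for H2-DMb2.

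This comparison and the one before it share the 5 SFN-fed ConAstro libraries. Over the 30 members tested, edgeR called 0 and DESeq2 called 1, Ciita. At an unadjusted p under 0.05 stood 7 members, 5 of 10 class II members lower, 1 of 19 class I members lower (Erap1, -0.34 ± 0.14) and H2-Ke6 higher (0.32 ± 0.10). Among the 16672 genes tested 0% were called and 20.3% had an unadjusted p under 0.05, so the 23.3% of all members stood near the background. The class II median was -0.86, the class I median -0.32 and the median of all genes 0.0073, and all 10 class II members had a negative sign. Class I members of the main roles had values of -0.32 ± 0.30 (B2m), -0.04 ± 0.16 (H2-K1), -0.19 ± 0.22 (H2-D1), -0.28 ± 0.22 (Tap1), -0.39 ± 0.42 (Psmb8) and -0.43 ± 0.24 (Nlrc5). H2-Ke6 encodes an enzyme of the short-chain dehydrogenase family, and 86.4% of its exon bases overlap Gm20427, so its reads are shared.

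Without the 2 libraries against their label, the medians were -0.73 for class II and -0.14 for class I, 0 of 30 members were called and 2 (Ciita and H2-Ke6) had an unadjusted p under 0.05. The same fit called 0.012% of 16705 genes, with 14.9% at an unadjusted p under 0.05. The prefix 147 holds 1 SFN-fed cKOAstro and 2 SFN-fed ConAstro libraries, too few for a value within it. The name series was unevenly spread in this comparison, with 3 Astro-named libraries of 7 in SFN-fed cKOAstro and 1 of 5 in SFN-fed ConAstro. Among numbered libraries without the library titled cKO_SFN2 the class I median was 0.22 and the class II median -0.23, with H2-K1 at 0.33 and B2m at 0.26. Marker lists moved too. The 10 endothelial markers had a median of -0.80 with 7 lower at an unadjusted p under 0.05, the 8 border macrophage markers a median of -0.58 with none, and the 12 microglia markers a median of -0.44 with none. The 14 constitutive proteasome subunits, of which the immunoproteasome members replace 3, were all higher at an unadjusted p under 0.05 (median 0.24, 0 called). The part of other cell types in the class II values was not tested.

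**Figure D3:**
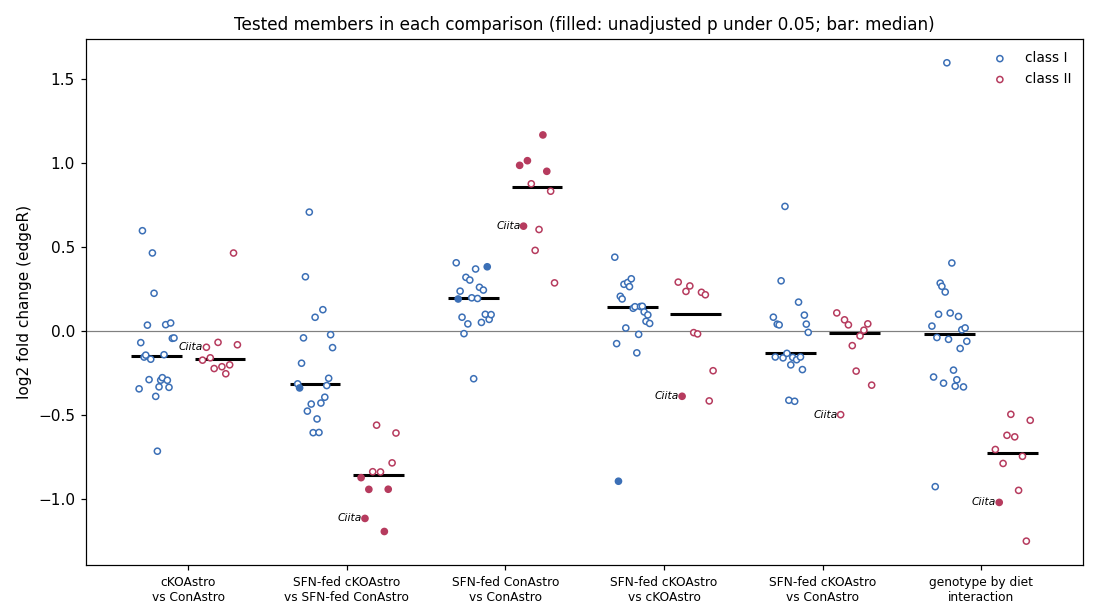
Log2 fold change (edgeR) of every tested class I and class II member in each comparison of the groups as labelled, 1 point per member, filled where the unadjusted p was under 0.05, with a bar at the median of each class. The class II median lies at 0.85 for SFN-fed ConAstro against ConAstro and at -0.86 for SFN-fed cKOAstro against SFN-fed ConAstro, comparisons that share the SFN-fed ConAstro libraries.

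In cKOAstro mice no member changed past the threshold on the SFN diet. B2m measured 282, 93.9, 163, 64.2, 126, 122 and 156 CPM in SFN-fed cKOAstro replicates 1 to 7, around the cKOAstro range of 61.8 to 149. Cd74 and H2-Aa overlapped likewise between the 2 groups. Of 31 members tested, edgeR and DESeq2 each called 0, and 3 had an unadjusted p under 0.05, namely H2-Bl (-0.90 ± 0.32), H2-Ke6 (0.21 ± 0.09) and Ciita (-0.39 ± 0.17), each with an edgeR adjusted p of 0.459. Among 16903 genes 0% were called and 10.9% were at an unadjusted p under 0.05, close to the 9.68% of members. H2-Bl had at most 0.154 CPM in any of these libraries. The fold changes were 0.29 ± 0.33 for Cd74, 0.24 ± 0.35 for H2-Aa, 0.27 ± 0.36 for H2-Ab1, 0.22 ± 0.34 for H2-Eb1, 0.44 ± 0.26 for B2m, 0.19 ± 0.14 for H2-K1, 0.21 ± 0.20 for H2-D1, 0.06 ± 0.20 for Tap1, 0.15 ± 0.40 for Psmb8 and -0.02 ± 0.25 for Nlrc5. Class I had a median of 0.14 and class II of 0.10, beside 0.0061 over all genes. Without the library titled cKO_SFN2 the medians were 0.21 and 0.22, with 0 of 31 members called and 2 at an unadjusted p under 0.05, against 0% and 6.94% of 17015 genes. Among numbered libraries without that library 17 of 35 members had an unadjusted p under 0.05, all higher on the SFN diet, and 0 were called, where 9.39% and 0.023% of 17423 genes were past those thresholds. Among the 5 Astro-named libraries of these groups 0 of 32 members were called or had an unadjusted p under 0.05, against 0% and 2.96% of 17137 genes, and the medians were 0.018 for class I and 0.15 for class II.

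SFN-fed cKOAstro against ConAstro, the comparison across both genotype and diet, gave class II values near 0. Cd74 had 0.11 ± 0.47, H2-Aa 0.07 ± 0.49, H2-Ab1 0.04 ± 0.53, H2-Eb1 0.0044 ± 0.50 and Ciita -0.50 ± 0.24. The class I genes B2m (0.08 ± 0.34), H2-K1 (0.04 ± 0.19), H2-D1 (0.04 ± 0.27), Tap1 (0.09 ± 0.26), Psmb8 (-0.16 ± 0.48) and Nlrc5 (-0.17 ± 0.36) were as close to it. The SE of the class II chains, near 0.5, leaves changes of up to about 2-fold in either direction within 2 SE. Of 30 members edgeR and DESeq2 called 0, with 1 at an unadjusted p under 0.05, H2-Ke6 (0.27 ± 0.11, edgeR adjusted p = 0.557), against 0% and 8.67% of 16753 genes. H2-M5 followed with 0.74 ± 0.34. Without the library titled cKO_SFN2, 0 of 30 members were called and 2 had an unadjusted p under 0.05, where 0.012% and 5.47% of 16623 genes did, and the medians were -0.03 for class I and 0.15 for class II, beside -0.13 and -0.01 with it. Among libraries whose name starts with 143 (4 ConAstro and 3 SFN-fed cKOAstro) the medians were 0.27 and 0.44, with 0 of 30 members called and 1 at an unadjusted p under 0.05, against 0% and 8.54% of 16583 genes. Without the library titled cKO_SFN2, 2 SFN-fed cKOAstro libraries were left there, the medians were 0.46 and 0.83, and 0 of 31 members were called, with 9 at an unadjusted p under 0.05, all higher, against 0.0119% and 6.9% of 16769 genes. Ciita had -0.42 ± 0.31 in the first of these fits and -0.26 ± 0.34 in the second.

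The interaction of genotype and diet asks directly whether the SFN diet moved the members differently in the 2 genotypes. Of 33 members, edgeR and DESeq2 called 0, and 1, Ciita, had an unadjusted p under 0.05 (-1.02 ± 0.29, edgeR adjusted p = 0.673). Over 17302 genes 0% were called and 7.32% were at an unadjusted p under 0.05. The sign of the interaction was negative for all 10 class II members, with a median of -0.73, and for 11 of 22 class I members, with a median of -0.02. Cd74 had -0.71 ± 0.54, H2-Aa -0.79 ± 0.57, H2-Ab1 -0.62 ± 0.60 and H2-Eb1 -0.75 ± 0.56, each within 2 SE of 0. The class I values were 0.03 ± 0.41 for B2m, 0.10 ± 0.22 for H2-K1, -0.04 ± 0.31 for H2-D1, -0.33 ± 0.29 for Tap1, -0.10 ± 0.57 for Psmb8 and -0.29 ± 0.43 for Nlrc5. H2-Ke6 (0.24 ± 0.12) and H2-Q10 (1.60 ± 0.93, at most 0.167 CPM) had the next lowest p. Without the 2 libraries against their label Ciita had -1.04 ± 0.30 (edgeR adjusted p = 0.561), the class II median was -0.63 and the class I median 0.11. That fit called 0 of 33 members and 0% of 17264 genes, and 2 members had an unadjusted p under 0.05, as did 8.32% of genes.

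With each comparison in its own edgeR fit on all labelled libraries, members were called between the 2 series of library names, where 6.39% of all genes tested were called. No member was called in the comparisons of groups, where at most 0.023% of all genes tested were, so the contrast holds for genes at large. Psmb9 measured 1.33 and 1.43 CPM in the 2 Astro-named cKOAstro libraries against 2.79 to 3.92 CPM in the 5 numbered ones. In SFN-fed cKOAstro it measured 1.59, 1.25 and 1.22 CPM in the 3 Astro-named libraries and 7.11, 1.22, 3.69 and 5.06 CPM in the numbered replicates 1, 2, 3 and 7. The single numbered library at the Astro-named level was replicate 2, which goes against its label. The single Astro-named library at the numbered level, with 4.27 CPM, was SFN-fed ConAstro replicate 1, the other library against its label. So for the library name, too, both stood with the opposite series. The same 2 libraries stood apart for H2-T23 (33.4 CPM in SFN-fed ConAstro replicate 1, against 8.53 to 10.8 in the other 5 Astro-named libraries, and 11.2 CPM in SFN-fed cKOAstro replicate 2 against 14.1 to 35.4 in the other 16 numbered ones).

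In the fit with group and name series as terms, over all 23 libraries, edgeR called 3 of 34 members, all lower in Astro-named libraries, where 6.39% of 17439 genes were called. They were Erap1 (-0.32 ± 0.07, adjusted p = 0.0206), H2-T24, a non-classical class I chain (-0.65 ± 0.18, adjusted p = 0.0388), and Psmb9 (-1.06 ± 0.30, adjusted p = 0.0410). At an unadjusted p under 0.05 stood 22 members, 20 of them lower, which is 64.7% against 24.1% of all genes. The class I median was -0.38 and the class II median -0.79, beside 0.012 over all genes. None of the 10 class II members was called, the lowest adjusted p being 0.0576 for H2-Aa (-0.90 ± 0.28), although 9 had an unadjusted p under 0.05. The count depended strongly on single libraries. Without cKOAstro replicate 2, the library with Xist, 0 members and 0 genes were called, without SFN-fed cKOAstro replicate 5 there were 0 members (1.38% of genes), without SFN-fed cKOAstro replicate 2 there were 15 (12.8%), and without SFN-fed ConAstro replicate 1 there were 19 (11.3%). Leaving out any 1 of SFN-fed cKOAstro replicates 3, 4, 6 and 7 or cKOAstro replicates 4, 5, 6 and 7 left 1, any 1 of cKOAstro replicate 3 and SFN-fed ConAstro replicate 3 left 2, and SFN-fed ConAstro replicate 4 left 6, where between 1.94% and 6.68% of genes were called. DESeq2 called 14 members and 12.3% of 17154 genes.

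Without the 2 libraries against their label, edgeR called 24 of 33 members, 23 lower and 1 higher in Astro-named libraries, against 17.3% of 17264 genes (26 members and 30.2% of genes at an unadjusted p under 0.05). Those called were 15 of 22 class I members and 9 of 10 class II members, and the medians were -0.49 and -1.25. Of the class I pathway Psmb9 fell by 1.61 ± 0.22, Psmb8 by 1.49 ± 0.22, H2-T23 by 1.24 ± 0.18, H2-T24 by 0.96 ± 0.16, B2m by 0.74 ± 0.23, H2-D1 by 0.69 ± 0.14, Tap1 by 0.68 ± 0.10, H2-K1 by 0.46 ± 0.11 and Erap1 by 0.40 ± 0.07 on the log2 scale. Of the class II pathway H2-Oa changed by -2.43 ± 0.46, H2-Ob by -2.15 ± 0.37, H2-Aa by -1.28 ± 0.28, H2-Ab1 by -1.21 ± 0.31, Cd74 by -1.13 ± 0.27 and H2-Eb1 by -1.13 ± 0.30. Ciita (-0.44 ± 0.17, edgeR adjusted p = 0.0759) and Nlrc5 (-0.38 ± 0.28), the 2 transactivators, did not pass. The 1 member that rose was H2-K2 (0.50 ± 0.16), which GENCODE gives as a pseudogene. For Erap1, H2-M3, H2-T23, Psmb8, Psmb9, Tapbp, H2-DMa and H2-Ob all 5 Astro-named libraries lay below all 16 numbered ones, while over all 23 libraries no member was so separated. The share of all genes separated in this way was not computed, so the separation cannot be read as particular to the members. Those 5 Astro-named libraries all came from Cre carriers, whereas the 16 numbered ones held both genotypes. Within groups the counts differed. Among cKOAstro libraries alone 13 of 36 members were called, with replicate 2 in the Astro-named pair, against 5.31% of 17977 genes. Among SFN-fed cKOAstro libraries alone 0 of 30 members and 0% of 16752 genes were called, or 5 of 30 members and 1.81% of 16605 genes without the library titled cKO_SFN2.

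**Figure D4:**
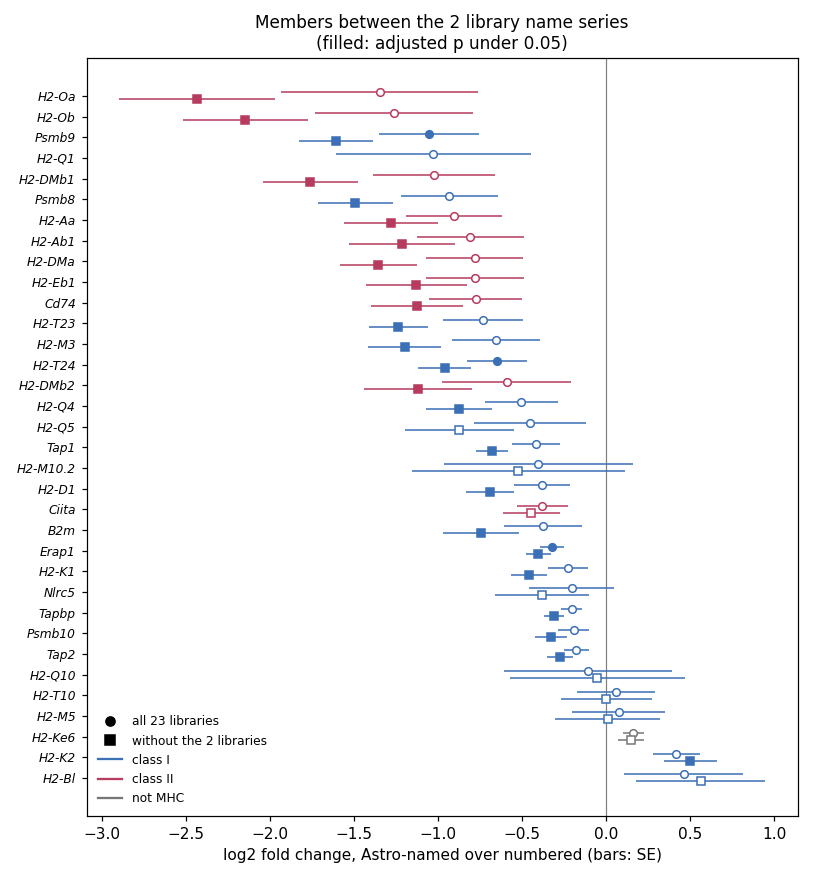
Log2 fold change ± SE of each tested member in Astro-named over numbered libraries, with circles for the fit on all 23 libraries and squares for the fit without the 2 libraries whose Aldh7a1 level goes against the label, filled where the adjusted p was under 0.05. Filled circles are Psmb9, H2-T24 and Erap1, and 24 squares are filled, 23 of them left of 0.

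Markers of microglia and border macrophages went with the library name in the same direction. The 12 microglia markers summed to 423 to 712 CPM in the 5 Astro-named libraries that fit their label and to 1066 to 3607 CPM in the 16 numbered ones, without overlap, and the 2 libraries against their label again stood with the opposite series (3097 and 468 CPM). The 8 border macrophage markers summed to 164 to 239 CPM against 307 to 753 CPM, also without overlap. These 5 Astro-named libraries all came from Cre carriers, whereas the 16 numbered ones held both genotypes, so the ranges mix genotype with name series. Not every list was lower in the Astro-named libraries. The 8 oligodendrocyte markers summed to 27806 to 59678 CPM against 23188 to 32084 CPM, and the 8 neuron markers to 190 to 862 CPM against 226 to 682 CPM. In the fit without those 2 libraries 11 of 12 microglia markers (median -2.41), 6 of 8 border macrophage markers (median -1.36) and 16 of 25 interferon-stimulated genes (median -0.53, lowest p for Gbp7) were called lower. That fit, with group as a term, called 17.3% of all 17264 genes tested. In the same fit 0 of 14 constitutive proteasome subunits were called (median 0.03), unlike the immunoproteasome members Psmb8 and Psmb9. Psmb10, the other immunoproteasome member, overlapped between the series. It measured 18.1 to 19.3 CPM in the 5 Astro-named libraries and 17.6 to 34.1 CPM in the 16 numbered ones. Of 15 further class II pathway genes 6 were called lower, led by Cd86 (-2.19), which encodes a costimulatory ligand for T cells, and of 17 genes of the interferon and NF-kappaB inputs 6 were called lower, led by the interferon gamma receptor gene Ifngr2 (-0.58). Of 12 further class I loading genes tested, 4 were lower and 1 higher. Whether the member levels in the 2 series go back to microglia and macrophage RNA was not tested.

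Within the 17 numbered libraries, levels of 4 members were set beside summed marker levels, both as log2 CPM. Microglia levels form separate clusters over all 23 libraries, so no pooled coefficient is given. All 4 members were correlated with the summed interferon-stimulated genes. For H2-K1 Pearson's r was 0.847 and Spearman's rho 0.863, for B2m 0.848 and 0.814, for Cd74 0.850 and 0.801, and for H2-Aa 0.843 and 0.809 (permutation p adjusted over 20 relations = 0.00012 for each r and 0.0008 for each rho). Without the 2 libraries farthest from the median of the marker level, r was 0.891, 0.842, 0.743 and 0.729 in that order. Border macrophage markers separated the classes more, with r = 0.818 for Cd74 (rho 0.806, adjusted permutation p = 0.00012 and 0.00088) and 0.805 for H2-Aa (rho 0.782, adjusted permutation p = 0.000333 and 0.00143), beside 0.613 for H2-K1 (rho 0.586, adjusted permutation p = 0.0188 and 0.0306) and 0.565 for B2m (rho 0.449, adjusted permutation p = 0.0337 and 0.106). Whether the class II coefficients exceed those of class I was not tested. Without the 2 farthest libraries these were 0.754, 0.736, 0.534 and 0.370, so that for B2m the relation rests in part on those libraries. Microglia markers gave r between 0.440 and 0.502 (adjusted permutation p from 0.0646 to 0.0819), and a rho of 0.542 for H2-K1 (adjusted permutation p = 0.0474, or 0.0849 with a rho of 0.506 without the library titled cKO_SFN2) and 0.360 to 0.400 for the other 3 (adjusted permutation p from 0.151 to 0.173). Endothelial markers gave 0.644 for Cd74, 0.642 for H2-Aa, 0.596 for B2m and 0.356 for H2-K1 (adjusted permutation p = 0.0134, 0.0134, 0.0229 and 0.162), and dendritic cell markers 0.458 to 0.495. The dendritic cell list followed the microglia list over libraries and cannot be read as a separate relation. Without the library titled cKO_SFN2 (16 libraries), r with interferon-stimulated genes lay between 0.814 and 0.905 and r of Cd74 with border macrophage markers was 0.787. The points share library depth and the purity of the preparation, and groups are mixed among them. Taken as deviations from group means, r with microglia markers was 0.641 for H2-K1 and 0.627 for Cd74. It was 0.458 and 0.377 without the library titled cKO_SFN2. With border macrophage markers such r was 0.692 for H2-K1 and 0.814 for Cd74 in the 17 libraries. The contrast between marker lists thus depends in part on how groups are pooled.

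**Figure D5:**
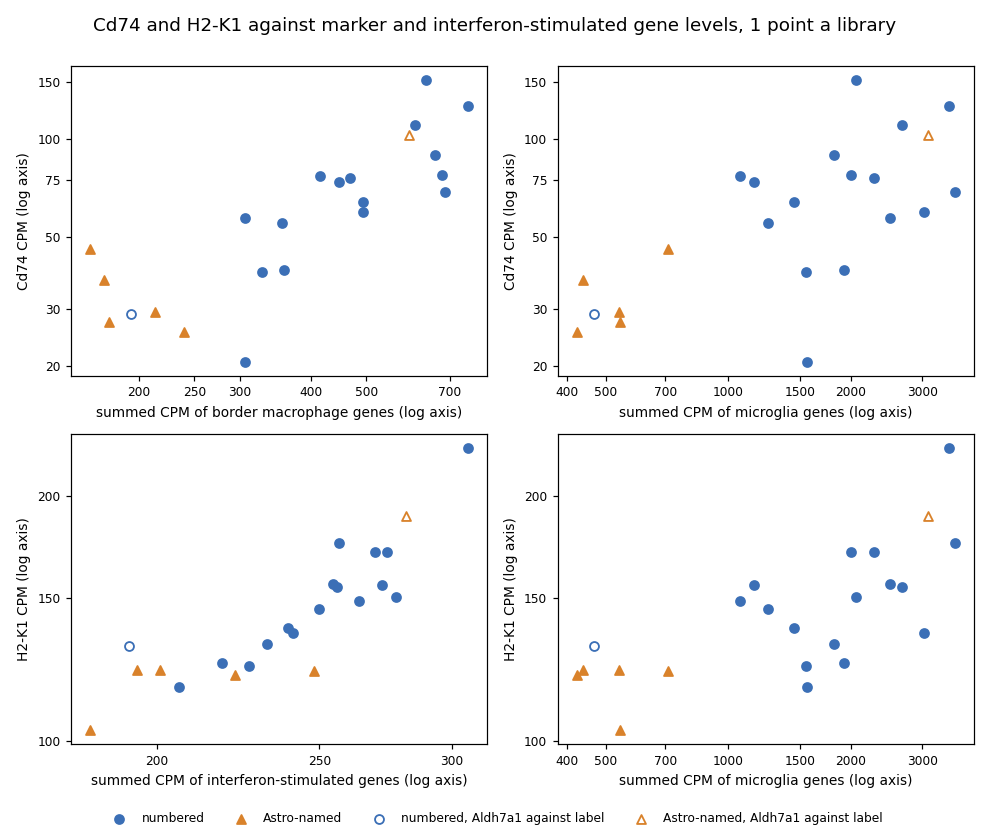
CPM of Cd74 (upper row) and H2-K1 (lower row) against the summed CPM of marker lists, all on log axes, 1 point per library, with triangles for Astro-named libraries and open symbols for the 2 libraries against their label. Among the 17 numbered libraries, groups pooled, H2-K1 goes with interferon-stimulated genes (r = 0.847) and Cd74 with border macrophage genes (r = 0.818), and both have a lower r against microglia genes (0.502 and 0.483).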

How the data were processed

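The authors checked reads with FastQC, aligned them to mm10 with STAR and deposited the raw read counts of each library by gene symbol, neither normalized nor pooled. The tool versions, the gene annotation and the use of strand in counting are not given in the sources used here, so members that overlap other genes on the opposite strand (Erap1 with Cast, for example) are uncertain. Of the deposited counts from 1 to 10, 66.1% were even. Each library was mapped to its group by its title. Any 2 libraries of a group differed by a chi-square of at least 44.1 for each degree of freedom. This bears only on repeat sequencing of 1 library and cannot show that preparations are independent. Every library was taken as 1 replicate. The labels link libraries by a replicate number and by the start of the library name, neither explained, and p-values measure the spread between these preparations.

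CPM values used trimmed mean of M values (TMM) normalization. The quasi-likelihood test of edgeR 4.0.16 (R 4.3.3, limma 3.58.1) was run after filterByExpr (minimum count 10, minimum total 15), each pair of groups in its own fit, the interaction on all 4 groups and the name series with group as a term, with Benjamini-Hochberg adjustment over all genes tested and a threshold of 0.05. The fits were tested on simulated data. DESeq2 1.42.0, relative log expression (RLE) normalization, no low-count filter, a joint fit of the groups, a block by replicate number, a name series covariate, numbered libraries alone, libraries of 1 name prefix or Astro-named libraries alone (chosen after seeing the data), fits without the libraries against their label and without each library in turn were alternatives. Correlations used 100000 permutations (SciPy 1.17.1), two-sided. Fold changes by gene are given for 11 members of the main roles, for members called (lowest p first) and, where none was called, for the 3 with the lowest p. Members and marker lists were chosen with earlier results of these data known.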

Additional observations from a re-analysis of the deposited data

Results flagged for a closer look

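Of 104 groups of 4 to 7 libraries that were examined for a single far value, 7 held one, and chance alone gives about 1 in 20 groups. H2-Q5 was at 1.25 CPM in ConAstro replicate 4 against 0.380 to 0.512 CPM in the other 3. Aldh7a1 was at 55.7 CPM in Con_SFN1, labelled SFN-fed ConAstro replicate 1 (177 to 226 CPM in the rest of the group) and at 222 CPM in cKO_SFN2, labelled SFN-fed cKOAstro replicate 2 (43.0 to 56.5 CPM). Xist was at 1541 CPM in cKOAstro replicate 2 against 0.179 to 0.586 CPM in the rest of its group, although all mice are labelled male. The summed border macrophage markers were low in SFN-fed ConAstro replicate 4, at 416 CPM against 594 to 659 CPM. The summed endothelial markers were high in that same library, at 911 CPM against 562 to 646 CPM, and in SFN-fed cKOAstro replicate 3, at 917 CPM against 196 to 498 CPM. What lies behind these values was not tested.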

How the results depend on the processing

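Counts of members called stood at 0 in the 5 comparisons of groups and in the interaction under RLE normalization, no low-count filter, the replicate block and the name series as a covariate, and for SFN-fed cKOAstro against SFN-fed ConAstro became 1 with DESeq2 and 1 with all 4 groups in 1 fit. For Astro-named against numbered libraries the 3 members called became 14 with DESeq2, 0 with the replicate block, 24 without the 2 libraries against their label, 13 among cKOAstro libraries alone, 0 among SFN-fed cKOAstro libraries alone and 5 among these without the library titled cKO_SFN2, where the class I median was -0.81. Among numbered libraries without that library the class I median was 0.22 for SFN-fed cKOAstro against SFN-fed ConAstro and 0.41 for SFN-fed cKOAstro against ConAstro, which among libraries named with 143 had a class I median of 0.27, and without the library titled cKO_SFN2 medians of 0.46 for class I and 0.83 for class II. Replicate numbers did not pair the libraries (correlations of same-numbered deviations from -0.211 to 0.336, above 0.1 in at most 2 pairs of a comparison). The cause of these changes was not tested. With the replicate number as a block, log2 fold changes of the other sign were Tap1 -0.12 in cKOAstro against ConAstro, Psmb8 -0.028 in SFN-fed cKOAstro against cKOAstro, B2m -0.012 in SFN-fed cKOAstro against ConAstro. With the name series as a covariate, log2 fold changes of the other sign were Cd74 0.043, H2-Aa 0.081, H2-Ab1 0.0048 and H2-Eb1 0.0074 in cKOAstro against ConAstro, Nlrc5 0.013 in SFN-fed cKOAstro against cKOAstro, Psmb8 0.30 in SFN-fed cKOAstro against ConAstro, B2m -0.042 in the interaction. Among numbered libraries alone, log2 fold changes of the other sign were Cd74 0.054, H2-Aa 0.093, H2-Ab1 0.016, H2-Eb1 0.019 and Ciita 0.012 in cKOAstro against ConAstro, B2m 0.053, H2-K1 0.22, H2-D1 0.12 and Psmb8 0.12 in SFN-fed cKOAstro against SFN-fed ConAstro, H2-K1 -0.00018 in SFN-fed ConAstro against ConAstro, Nlrc5 0.014 in SFN-fed cKOAstro against cKOAstro, Psmb8 0.29 in SFN-fed cKOAstro against ConAstro, H2-D1 0.13 and Psmb8 0.14 in the interaction. Among numbered libraries without the library titled cKO_SFN2, log2 fold changes of the other sign were B2m 0.26, H2-K1 0.33, H2-D1 0.31, Tap1 0.16 and Psmb8 0.40 in SFN-fed cKOAstro against SFN-fed ConAstro, Nlrc5 0.25 in SFN-fed cKOAstro against cKOAstro, Psmb8 0.57 and Nlrc5 0.16 in SFN-fed cKOAstro against ConAstro, H2-D1 0.34 and Psmb8 0.45 in the interaction. Among libraries whose name starts with 143, log2 fold changes of the other sign were Psmb8 0.42 in SFN-fed cKOAstro against ConAstro. Among these without the library titled cKO_SFN2, log2 fold changes of the other sign were Psmb8 0.83 and Nlrc5 0.23 in SFN-fed cKOAstro against ConAstro. Without the 2 libraries against their label, log2 fold changes of the other sign were H2-K1 0.075 in SFN-fed cKOAstro against SFN-fed ConAstro, H2-K1 -0.00018 in SFN-fed ConAstro against ConAstro, Nlrc5 0.078 in SFN-fed cKOAstro against cKOAstro, H2-D1 0.11 and Psmb8 0.086 in the interaction. With each library left out in turn, members called ranged from 0 to 1 for SFN-fed cKOAstro against SFN-fed ConAstro and from 0 to 19 between the name series, and fold changes of both signs were seen for the following members. In cKOAstro against ConAstro these were H2-D1 -0.28 to 0.00078, Tap1 -0.032 to 0.16, Nlrc5 -0.40 to 0.072, Cd74 -0.44 to 0.060, H2-Aa -0.44 to 0.10, H2-Ab1 -0.51 to 0.17, H2-Eb1 -0.48 to 0.093 and Ciita -0.24 to 0.16. In SFN-fed cKOAstro against SFN-fed ConAstro these were H2-K1 -0.17 to 0.044. In SFN-fed ConAstro against ConAstro these were H2-K1 -0.013 to 0.17 and Nlrc5 -0.0042 to 0.47. In SFN-fed cKOAstro against cKOAstro these were Tap1 -0.061 to 0.15, Psmb8 -0.20 to 0.29, Nlrc5 -0.15 to 0.078, Cd74 -0.012 to 0.42, H2-Aa -0.082 to 0.37, H2-Ab1 -0.079 to 0.41 and H2-Eb1 -0.15 to 0.35. In SFN-fed cKOAstro against ConAstro these were B2m -0.15 to 0.35, H2-K1 -0.084 to 0.13, H2-D1 -0.13 to 0.21, Tap1 -0.026 to 0.22, Psmb8 -0.50 to 0.022, Nlrc5 -0.42 to 0.053, Cd74 -0.20 to 0.36, H2-Aa -0.25 to 0.34, H2-Ab1 -0.31 to 0.44 and H2-Eb1 -0.36 to 0.32. In the interaction these were B2m -0.23 to 0.17, H2-K1 -0.026 to 0.19, H2-D1 -0.21 to 0.077 and Psmb8 -0.46 to 0.036. Fold changes of low members such as H2-Bl, H2-M5 and H2-Q10 rest on few reads, and counting error alone limits them.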
